A study of Mus musculus with 4 samples.

Results

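The interferon response and antigen presentation genes are the transcripts that cells make after sensing interferons, together with the chains and enzymes that display peptides on major histocompatibility complex (MHC) molecules. They were followed in E14 molar tooth germs of NMRI mice cultured with TCDD or with DMSO. Members were chosen by gene symbol: names starting with Ifi, Irf, Gbp, Irgm, Oas or H2-, the immunoproteasome genes Psmb8, Psmb9 and Psmb10, the peptide transporter and tapasin genes (Tap1, Tap2, Tapbp), Mx1, Mx2, Iigp1, Igtp, Isg15, Usp18, B2m and Lgals3bp. The rule found 93 probe sets of 75 genes among 12422 probe sets that are no Affymetrix control. Stat2 and Bst2, which the rule also names, were not analysed here. Prefixes bring in a few genes of other function, such as Irf2bp1, which encodes a partner protein of Irf2, and H2-Ke6, which encodes a hydroxysteroid dehydrogenase.

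The tested arrays held RNA from explants given 1 µM TCDD (2,3,7,8-tetrachlorodibenzo-p-dioxin, a dioxin that activates the aryl hydrocarbon receptor) for 24 h, and the control arrays RNA from explants given DMSO at 0.65%. Each group had 2 arrays, and each array was made from a pool of about 60 explants gathered over 3 experiments. All explants were mandibular molar tooth germs, in which dental epithelium and mesenchyme meet, in medium with fetal calf serum, and only DMSO replicate 2 is labelled with ascorbic acid in the medium. Total RNA input was 11 µg and 8 µg for TCDD replicates 1 and 2, against 11 µg and 7 µg for DMSO replicates 1 and 2. Values are MAS5 signals, a brightness per probe set scaled by the authors so that an array's trimmed mean is 100. Of the members' 372 values, 179 were stored as calendar days and turned back into signals below 32, which touches 61 of the 93 probe sets but 3 of the 29 at a mean signal of 50 or more. These 3 were Gbp3, Ifitm10 and H2-K2 (93714_f_at), each with 1 such value, in DMSO. Having 2 arrays a group limits the precision. Log2 differences are of signal + 16, TCDD minus DMSO, and understate the change of dim genes.

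Interferons are secreted proteins that bind paired receptors and act through the kinases Jak1, Jak2 and Tyk2 on Stat proteins. Type I interferons lead to a complex that contains Stat2 and Irf9 and binds the interferon-stimulated response element, while pairs of Stat proteins bind another short site. The induced genes include GTPases that attack intracellular pathogens, antiviral effectors, and the MHC class I pathway, in which immunoproteasome peptides pass through the Tap transporter onto heavy chains paired with beta-2 microglobulin. MHC class II chains are made mainly by professional antigen-presenting cells.

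Most interferon-induced GTPases and antiviral effectors had higher signals in TCDD-treated tooth germs, MHC class I and peptide supply genes went both ways, and MHC class II chains were dim in both groups. Of the 34 GTPase and effector probe sets, 20 had both TCDD signals above both DMSO signals and 1 had both below, where 10.8% and 20.8% of all probe sets did. The count depends on dim probe sets and repaired values. Among the 7 at a mean signal of 50 or more it was 4 and 0 (15.3% and 14.6% of all probe sets there). With all stored days set to a signal of 16 it was 8 and 1 (8.57% and 10.5% of all probe sets). Over all 93 members these counts were 27 and 15, and with quantile normalization 31 and 9 (14.9% and 15.4% of all probe sets). Among the 24 members with a mean signal of 20 to 50, they were 9 and 2, where 9.15% and 20.9% of the probe sets in that range, 30% in both directions, did so. Of the 29 members at 50 or above, 19 had a positive difference, against 51.1% of all probe sets there. No single member passed the test across all genes: 0 of the 29 members with a mean signal of at least 50 reached a limma adjusted p of 0.05 in either direction, against a background of 0.0692% (0.0346% higher and 0.0346% lower), and 0 of 93 did without that minimum (background 0.0161%). At an unadjusted limma p under 0.05 there were 3 of 29 (background 2.59%), all 3 higher in TCDD (background 1.4% higher and 1.19% lower). Without the minimum there were 10 of 93 (background 3.64%), 9 of them higher in TCDD and 1 lower (background 1.1% and 2.54%). The median log2 difference was 0.26 for GTPases, 0.15 for effectors, 0.21 for peptide supply, -0.07 for class I, -0.00 for class II and -0.01 for the transcription factors, against -0.05 over all probe sets. The peptide supply median was -0.10 at a mean signal of at least 50 and -0.10 without DMSO replicate 2, and the effector median was 0.39 at an offset of 1.

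**Figure D1:**
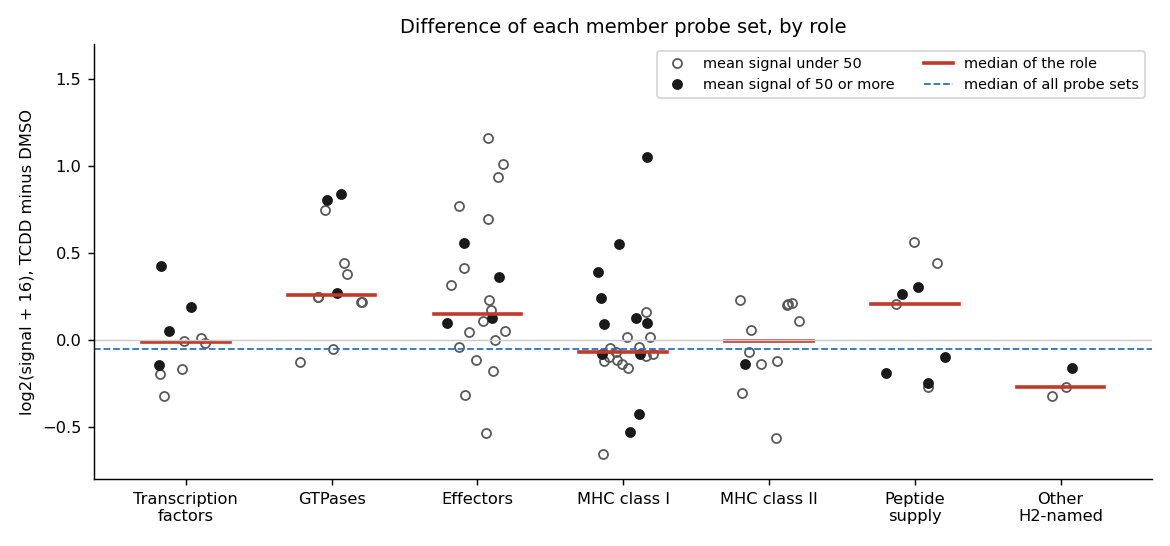
Log2(signal + 16), TCDD minus DMSO, for each of the 93 member probe sets by role (filled circles: mean signal of 50 or more over the 4 arrays; open circles: below 50; red bars: median of the role; dashed line: median of all probe sets). GTPases and effectors lie mostly above the dashed line, while MHC class I and class II probe sets lie on both sides of it.

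**Figure D2:**
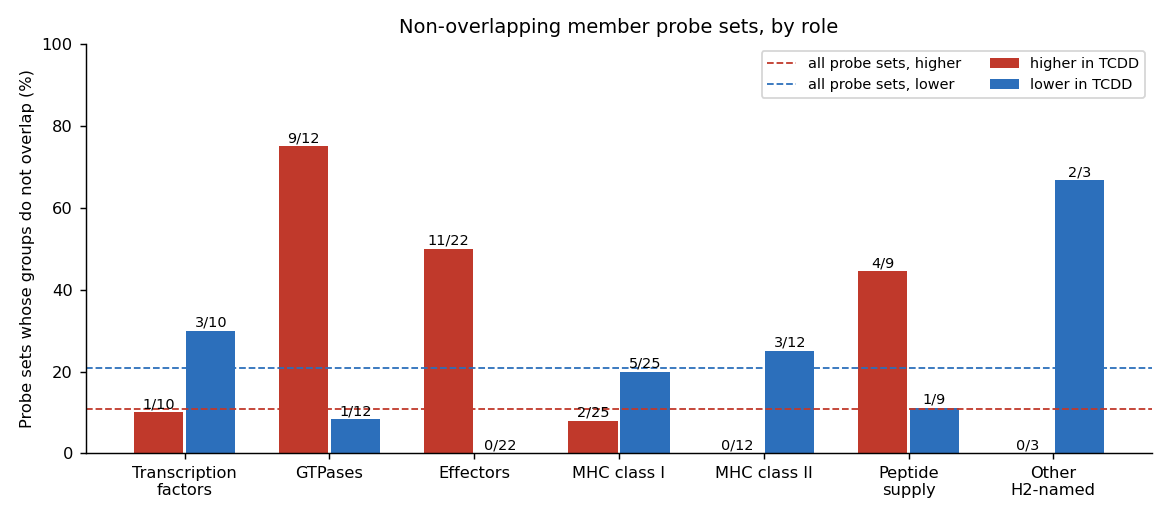
Percentage of member probe sets in each role whose 2 TCDD signals both lie above (red) or both below (blue) the 2 DMSO signals, with the counts over the bars and dashed lines for all 12422 probe sets. GTPases (9 of 12) and effectors (11 of 22) have the tallest red bars, and MHC class II has none.

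The promoter windows of 6 members are shown to let the interferon-stimulated response element be read in place. These 6 were picked because both TCDD signals were higher and the window holds the element, so they do not stand for all members: Irf9, Tapbp, Lgals3bp, Psmb8, Psmb9, Psmb10, Ifi47, Ifi202b and H2-K1 were higher in both TCDD arrays with no match in their windows. The windows run from 250 bases before to 50 bases after the start of the gene in RefSeq's GRCm38.p6 table, which holds 57 of the 75 genes. They were searched on both strands for the core of the interferon-stimulated response element (GAAA, any 2 bases, GAAA), the Stat dimer site (TTCNNNGAA) and the core of the dioxin response element that the aryl hydrocarbon receptor binds (GCGTG). The interferon core and the Stat site shared bases in 1 member window. Capitals mark each match of the interferon core or of its reverse complement, and windows are 5′ to 3′ on the strand of the gene.
Isg15: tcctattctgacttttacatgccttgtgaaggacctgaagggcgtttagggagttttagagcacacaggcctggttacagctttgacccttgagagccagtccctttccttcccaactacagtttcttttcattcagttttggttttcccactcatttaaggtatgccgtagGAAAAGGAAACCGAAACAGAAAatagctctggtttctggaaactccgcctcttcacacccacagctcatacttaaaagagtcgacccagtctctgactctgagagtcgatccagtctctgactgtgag
Ifit1: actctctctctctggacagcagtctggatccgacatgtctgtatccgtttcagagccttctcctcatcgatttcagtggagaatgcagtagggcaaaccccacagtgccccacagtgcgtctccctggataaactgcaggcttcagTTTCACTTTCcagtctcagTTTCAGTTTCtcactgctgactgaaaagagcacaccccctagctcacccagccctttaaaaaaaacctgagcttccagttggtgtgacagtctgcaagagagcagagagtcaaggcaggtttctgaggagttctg
Ifit3: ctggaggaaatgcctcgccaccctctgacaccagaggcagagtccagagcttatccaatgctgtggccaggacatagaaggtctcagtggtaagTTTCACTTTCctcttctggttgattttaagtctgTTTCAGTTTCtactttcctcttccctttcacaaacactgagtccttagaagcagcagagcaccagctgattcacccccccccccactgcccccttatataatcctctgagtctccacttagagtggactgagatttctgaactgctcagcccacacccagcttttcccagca
Gbp2: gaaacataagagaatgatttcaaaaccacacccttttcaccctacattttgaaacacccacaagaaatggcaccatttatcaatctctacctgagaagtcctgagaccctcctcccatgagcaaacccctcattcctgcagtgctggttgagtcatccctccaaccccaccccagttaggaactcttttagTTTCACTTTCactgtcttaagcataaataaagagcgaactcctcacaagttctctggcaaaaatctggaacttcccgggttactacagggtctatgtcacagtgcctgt
Gbp3: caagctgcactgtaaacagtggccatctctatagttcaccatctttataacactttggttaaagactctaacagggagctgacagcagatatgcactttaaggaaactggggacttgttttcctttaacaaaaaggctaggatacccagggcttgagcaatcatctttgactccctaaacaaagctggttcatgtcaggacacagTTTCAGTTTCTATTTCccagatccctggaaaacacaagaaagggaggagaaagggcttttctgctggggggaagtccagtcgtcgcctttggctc
B2m: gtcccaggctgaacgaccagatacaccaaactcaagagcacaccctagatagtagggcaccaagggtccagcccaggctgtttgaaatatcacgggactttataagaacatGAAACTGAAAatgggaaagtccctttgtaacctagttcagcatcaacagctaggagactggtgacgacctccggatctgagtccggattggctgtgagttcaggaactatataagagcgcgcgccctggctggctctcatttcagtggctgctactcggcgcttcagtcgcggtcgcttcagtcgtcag
These windows lie at chr4:156200769-156201068 (minus strand) for Isg15, chr19:34640639-34640938 for Ifit1, chr19:34583279-34583578 for Ifit3, chr3:142620413-142620712 for Gbp2, chr3:142559794-142560093 for Gbp3 (the first of its 2 windows) and chr2:122147437-122147736 for B2m, all but the first on the plus strand. The core begins at position -78 relative to the gene's start in Isg15, at -104 in Ifit1, at -156 in Ifit3, at -59 in Gbp2, at -45 in Gbp3 and at -139 in B2m. Isg15 holds 3 overlapping copies and Gbp3 2, each within 1 run of capitals, and Ifit1 and Ifit3 hold 2 separate copies each. None of the 6 windows holds the dioxin core. Igtp and Irgm2, also higher in both TCDD arrays with the interferon core, do hold the dioxin core and are not shown.

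The interferon core was present in 16 of the 57 member genes with a window, against 3.99% of the 27025 genes in the table. It stood in 7 of 8 GTPase genes and 8 of 16 effector genes, in 1 of 10 class I genes (B2m), and in 0 of 9 class II, 0 of 5 peptide supply and 0 of 8 transcription factor genes. The Stat site was found in 14 of the 57 (9.55% in the table) and the dioxin core in 21 of the 57 (35.1%). By role, the dioxin core stood in 2 of 8 GTPase, 3 of 16 effector, 6 of 10 class I and 1 of 9 class II genes. It also stood in 4 of 5 peptide supply and 4 of 8 transcription factor genes and in H2-Ke6. Each gene was taken at its brightest probe set. Among the 16 members with the interferon core, 12 had both TCDD signals above both DMSO signals and 1 both below (median log2 difference 0.29). Among the 41 without it these counts were 9 and 8 (median 0.04), where 12.8% and 18.8% of all array genes with a window did so. Members with the core are nearly all GTPases and effectors, so this split overlaps with that by role, and the 2 were not separated. Among the 21 members with the dioxin core, 6 had non-overlapping higher and 4 non-overlapping lower signals (median 0.05). Among the 36 without it these counts were 15 and 5 (median 0.21). The dioxin core was less frequent in GTPase and effector genes than in class I and peptide supply genes. This split therefore also overlaps with that by role, and the 2 were not separated. Outside the members, 36 of 240 array genes with the interferon core had non-overlapping higher signals (15%, median -0.00), close to the 12.8% of all 6572 array genes with a window. These are counts of letters in short windows, and no binding was measured.

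**Figure D3:**
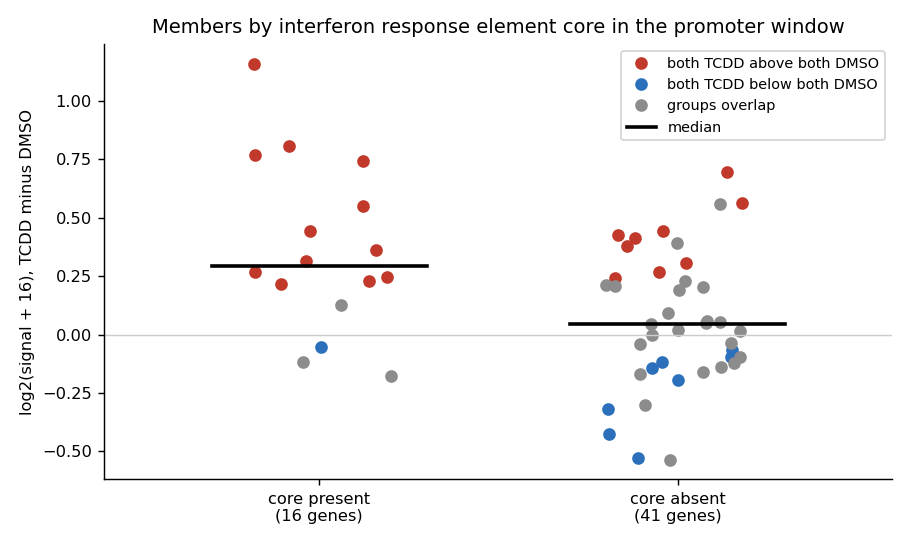
Log2(signal + 16), TCDD minus DMSO, of each member gene with a promoter window (brightest probe set), split by whether the window holds the interferon-stimulated response element core. Points are red where both TCDD signals exceed both DMSO signals, blue where both are below and grey where the groups overlap, and black bars are medians: 0.29 for the 16 genes with the core and 0.04 for the 41 without.

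The immunity-related GTPases Iigp1, Irgm1, Irgm2, Igtp and Ifi47, of a family that acts in defence against intracellular pathogens, were higher in both TCDD arrays. Iigp1 (96764_at) had signals of 109.4 and 102.4 in TCDD, against 57.2 and 47.2 in DMSO. Its TCDD arrays were close together and well above either DMSO array, and the log2 difference was 0.84 ± 0.22 (SE, limma adjusted p 0.997). The second Iigp1 probe set (103963_f_at) was dimmer and overlapped, at 44.2 and 37.5 in TCDD and 41.0 and 24.2 in DMSO. Irgm1 had 41.6 and 28.4 in TCDD against 26.0 and 16.9 in DMSO, so the lower TCDD array was just above the higher DMSO array. Irgm2 (53.9 and 51.4 against 50.8 and 34), Igtp (16.6 and 23.7 against 15.9 and 14.0) and Ifi47 (24.5 and 17.7 against 11.6 and 13.3, TCDD first) had smaller log2 differences of 0.25, 0.22 and 0.38. All 4 Ifi47 values and 3 of the 4 Igtp values were stored as calendar days, so these 2 differences rest on the repair. So were 1 TCDD and 1 DMSO value of Irgm1. Its log2 difference of 0.44 was 0.23 with such values set to 16.

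The guanylate-binding proteins Gbp2, Gbp3 and Gbp7, large GTPases of cell-autonomous defence, were also higher in both TCDD arrays. Gbp3 had 85.8 and 74.3 in TCDD against 47.6 and 31.3 in DMSO, which gave a log2 difference of 0.81 ± 0.25 (SE, limma adjusted p 0.997). Gbp2 had 41.0 and 44.1 in TCDD against 13.0 and 26.1 in DMSO, and Gbp7 had 61.8 and 63.9 against 52.7 and 46.3. In each of these 3 genes the DMSO arrays never reached the TCDD arrays, and in Gbp2 and Gbp3 the DMSO arrays differed from each other more than the TCDD arrays did. Gbp2b (signals of 0.5 to 1.1) and Mx1 (2.3 to 8.1), a dynamin-like antiviral GTPase, were near 0 on every array. Mx2 had 15.7 and 21.7 in TCDD against 15.4 and 12.1 in DMSO, and all 4 of these values were stored as calendar days.

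Among the effectors, the largest differences were in dim genes, named here after their values were seen. Usp18, the protease that removes Isg15 from proteins and dampens type I interferon signalling, had signals of 25.3 and 36.0 in TCDD against 8.0 and 8.4 in DMSO. Ifit1, which binds viral RNA, had 54.8 and 21.2 in TCDD against 3.4 and 11.2 in DMSO. Ifit3, its partner, had 45.4 and 40.6 in TCDD against 20.8 and 16.5 in DMSO. In all 3 genes every TCDD array was above every DMSO array, but the TCDD arrays of Ifit1 differed from each other by more than its DMSO arrays did. The log2 differences were 0.94 ± 0.24 for Usp18, 1.16 ± 0.36 for Ifit1 and 0.77 ± 0.27 for Ifit3 (SE, limma without the minimum signal), each with an adjusted p of 0.979. The Ifit1 value was 0.70 without TCDD replicate 1, and with stored days set to 16 it was 0.57 and that of Usp18 0.56.

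Lgals3bp, a secreted glycoprotein that binds galectins, lay just below the minimum at a mean of 48.3, with 60.5 and 66.6 in TCDD against 32.6 and 33.6 in DMSO. Here the gap between the groups was several times the gap within either, and the log2 difference was 0.70 ± 0.26 (SE, limma adjusted p 0.979 without the minimum). Isg15, the ubiquitin-like modifier, had 88.2 and 115.7 in TCDD against 72.2 and 78.0 in DMSO, a log2 difference of 0.36 ± 0.22 (SE, limma adjusted p 0.997) that was 0.19 without TCDD replicate 2. Ifi204 (98465_f_at), of the interferon-inducible DNA-binding family, had 30.1 and 25.4 in TCDD against 2.2 and 9.9 in DMSO. Its probe set 161180_r_at overlapped, at 13.5 and 4.7 against 18.4 and 11.5. All 4 Ifi204 values at 98465_f_at were stored as calendar days and turned back into signals, so its difference of 1.01 rests on that repair and is 0 with such values set to 16.

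Other effectors were less uniform. Ifih1, a sensor of double-stranded RNA, had 29.1 and 27.3 in TCDD against 24.6 and 15.1 in DMSO, and Ifi202b 58.4 and 31.5 against 29.8 and 27.6. Oas1g, an oligoadenylate synthetase, and Ifi27l2a were higher in both TCDD arrays at signals below 16. All 4 values of Ifih1 and of Ifi27l2a were stored as calendar days, as were 3 of the 4 of Ifi202b and of Oas1g. The differences of these genes rest on the repair, wholly or in part. The membrane protein Ifitm3, which blocks viral entry, was the brightest member, with 998.4 and 933.6 in TCDD and 979.1 and 798.0 in DMSO, and overlapped. Ifi27 also overlapped (151.0 and 231.4 in TCDD, 169.8 and 177.5 in DMSO). Ifitm1 had a log2 difference of -0.54 set by 1 DMSO array, with 12.5 and 16.8 in TCDD against 46.0 and 15.7 in DMSO, and Ifitm10 one of 0.56, with 72.5 and 65.8 in TCDD against 23.7 and 68.1 in DMSO. Ifitm2, Ifitm6, Ifit2, Ifi35, Ifi207 and Ifi209 overlapped, with mean signals between 0.7 and 19.3.

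**Figure D4:**
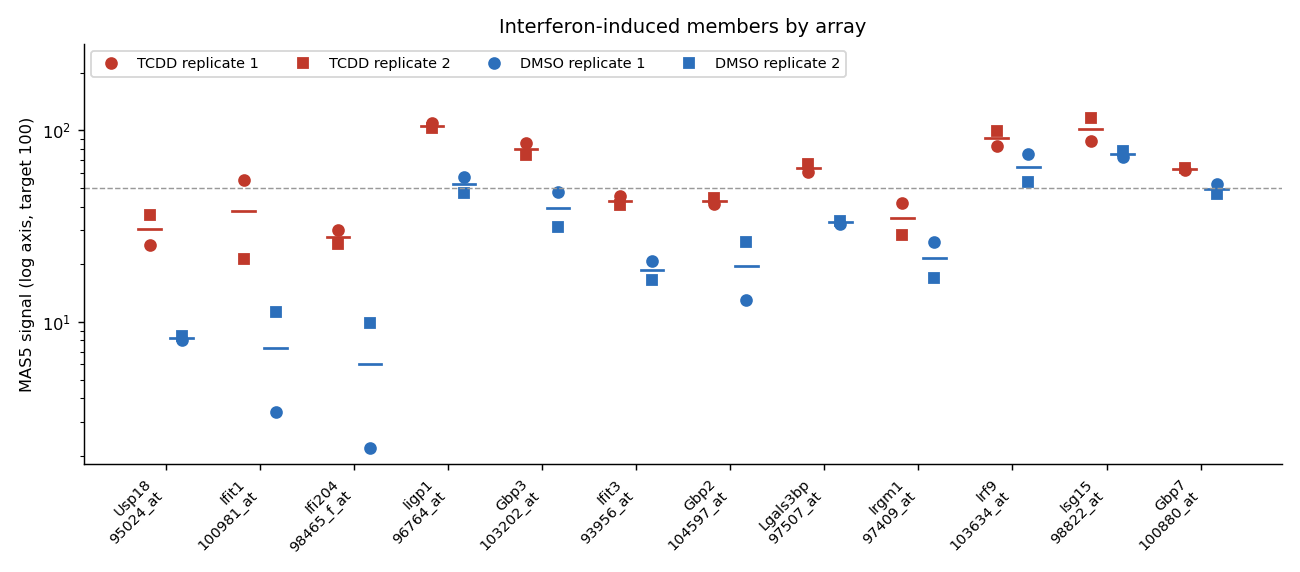
MAS5 signal (log axis) of 12 interferon pathway probe sets, picked from the members whose groups do not overlap, on each array, TCDD in red and DMSO in blue, with circles for replicate 1, squares for replicate 2, short bars for group means and a dashed line at a signal of 50. For each probe set both TCDD points lie above both DMSO points, for example 25.3 and 36.0 against 8.0 and 8.4 in Usp18.

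Ranked among all 12422 probe sets by their smallest log2 change over the 4 TCDD-DMSO array pairs, 5 members stood within the first 16: Usp18 at rank 5 (smallest change 0.76), Iigp1 at rank 7 (0.69), Ifi204 at rank 11 (0.68), Lgals3bp at rank 15 (0.63) and Ifit3 at rank 16 (0.62). Gbp3, Ifit1 and Gbp2 followed at ranks 32, 46 and 49. B2m was at rank 149 and Isg15 at rank 404. The members were picked for their function with earlier results of these arrays known, so the ranks are a description.

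The transcription factors and upstream signals went both ways. Of the 10 factor probe sets, 1 had non-overlapping higher and 3 non-overlapping lower signals (Irf1, Irf4 and Irf7 at 162202_f_at). With a background of 10.8% and 20.8%, these are too few to set the role apart from all probe sets. Irf9, the DNA-binding partner of Stat2, was the 1 factor with both TCDD signals higher, at 83.2 and 99.6 against 75.1 and 53.9 in DMSO, a log2 difference of 0.42 ± 0.23 (SE, limma adjusted p 0.997) that was 0.23 without DMSO replicate 2. Irf1, an interferon gamma target, had 71.0 and 73.4 in TCDD against 89.5 and 74 in DMSO. Irf7, an inducer of type I interferon genes that is itself interferon-induced, had 20 and 35.5 in TCDD and 34.3 and 21.0 in DMSO at 104669_at, and 30.5 and 27.0 against 48.3 and 32.4 at 162202_f_at. Irf3 (99103_at), Irf5 and Irf8 overlapped, Irf4 had signals of 3.6 or less on every array, and Irf2bp1 averaged 242 in TCDD and 234 in DMSO.

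Of 27 listed interferons, receptors, kinases and related signalling genes outside the members, 25 were measured and 14 reached the minimum. Of these 14, 7 had positive and 7 negative differences and 0 passed limma's adjusted p. The 1 gene of the 14 at an unadjusted limma p under 0.05 was Tyk2 (background 2.59%). Ifnb1, the type I interferon gene of most cells, had 15.3 and 10.5 in TCDD and 4.1 and 15.0 in DMSO, and Ifng, the type II gene, had 5.5 or less on every array. Ifnar1, a type I receptor chain, had 131.5 and 161.9 in TCDD and 134.6 and 160.6 in DMSO. Ifnar2 (101014_at) had 92.3 and 79.2 in TCDD against 72.7 and 70.8 in DMSO. Its dimmer probe set 101015_s_at overlapped, at 33.5 and 42.8 in TCDD and 35.3 and 32.2 in DMSO. Ifngr1, the ligand-binding chain of the interferon gamma receptor, had 70.2 and 66.0 in TCDD against 48.5 and 43.3 in DMSO, a log2 difference of 0.44 ± 0.23 (SE), while Ifngr2 overlapped, at 62.7 and 48.6 in TCDD and 59.9 and 64.5 in DMSO. Tyk2, a kinase of the type I receptor, had 43.9 and 30.1 in TCDD against 61.6 and 64.9 in DMSO, a log2 difference of -0.59 ± 0.25 (SE). Jak1 had 277.9 and 218.2 in TCDD and 246.2 and 202.4 in DMSO.

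Further interferon-induced genes outside the rule were divided above the minimum signal. Of 42 listed, 31 were measured, 21 with a positive difference (background 39.2%), 9 with non-overlapping higher and 2 with non-overlapping lower signals (background 10.8% and 20.8%). Among the 10 that reached the minimum 5 were positive, 5 negative and 0 passed limma's adjusted p (2 at an unadjusted p under 0.05, background 2.59%). Ccl2, a monocyte-attracting chemokine, had 95.3 and 87.4 in TCDD against 52.0 and 39.6 in DMSO (log2 difference 0.80 ± 0.23, SE). Lgals9, which encodes galectin-9, had 78.6 and 83.4 in TCDD against 49.8 and 54.2 in DMSO. Its dim probe set 161301_f_at was lower in both TCDD arrays, at 2.8 and 1.9 against 10.9 and 3.1. Ly6e, a membrane-anchored protein, had 644.4 and 616.5 in TCDD against 437.7 and 518.1 in DMSO, while its dim probe set 101488_r_at overlapped. Of 10 measured sensors and adaptors out of 24 listed, all 4 above the minimum had positive differences and 0 passed limma's test, adjusted or not, the largest being Trim25, a ubiquitin ligase of RNA sensing, at 0.33 ± 0.21, and Tbk1, a kinase that activates Irf3, at 0.30 ± 0.21 (SE).

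In the class I pathway B2m, the light chain shared by class I molecules, had 979.4 and 926.0 in TCDD against 764.1 and 545.4 in DMSO. The TCDD arrays were close together and both above either DMSO array, and the log2 difference was 0.55 ± 0.20 (SE, limma adjusted p 0.997), or 0.31 without DMSO replicate 2. H2-K1 (93120_f_at), a classical heavy chain that presents peptides to cytotoxic T cells, had 365.7 and 391.5 in TCDD against 331.9 and 304.2 in DMSO, a log2 difference of 0.24 ± 0.19 (SE). Its probe sets 97125_f_at and 97700_at overlapped, with log2 differences of 0.12 and -0.04. H2-D1, the other classical heavy chain, overlapped at all 3 probe sets, with 258.4 and 370.8 in TCDD and 195.9 and 275.1 in DMSO at the brightest, 97540_f_at.

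H2-K2 (93714_f_at) had the largest log2 difference among members above the minimum, 1.05 ± 0.60 (SE), and it rested on DMSO replicate 1. Its signals were 144.7 and 229.5 in TCDD and 23.8 and 214.9 in DMSO. The 23.8 of DMSO replicate 1 was stored as a calendar day, so the difference rests on the repair. Without DMSO replicate 1 the difference was -0.22. Without DMSO replicate 2 it was 2.32, the 1 member call made with an array left out (limma adjusted p 0.00871). Over the 25 class I probe sets, 2 had non-overlapping higher and 5 non-overlapping lower signals, shares near the background of 10.8% and 20.8%, so the counts are no result about class I. Among the lower ones above the minimum, H2-M10.1 (100305_g_at) had 40.4 and 48.2 in TCDD against 90.9 and 54.6 in DMSO, while its probe sets 100304_at and 100303_at overlapped with differences of -0.12 and 0.02. H2-M9 had 61.2 and 64.4 in TCDD against 118.0 and 67.6 in DMSO, and its log2 difference of -0.43 was -0.086 without DMSO replicate 1. H2-T18 overlapped, with 109.9 and 127.8 in TCDD and 214.1 and 71.9 in DMSO. Of all members, 19 probe sets carry the suffix _f_at, given to probes that match a family of related sequences, and the brightest class I heavy chain signals come from these, so they cannot be assigned to 1 gene with certainty. A further 15 probe sets naming a rule gene together with other genes, 11 of them with an H2 symbol, were left out by the rule.

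**Figure D5:**
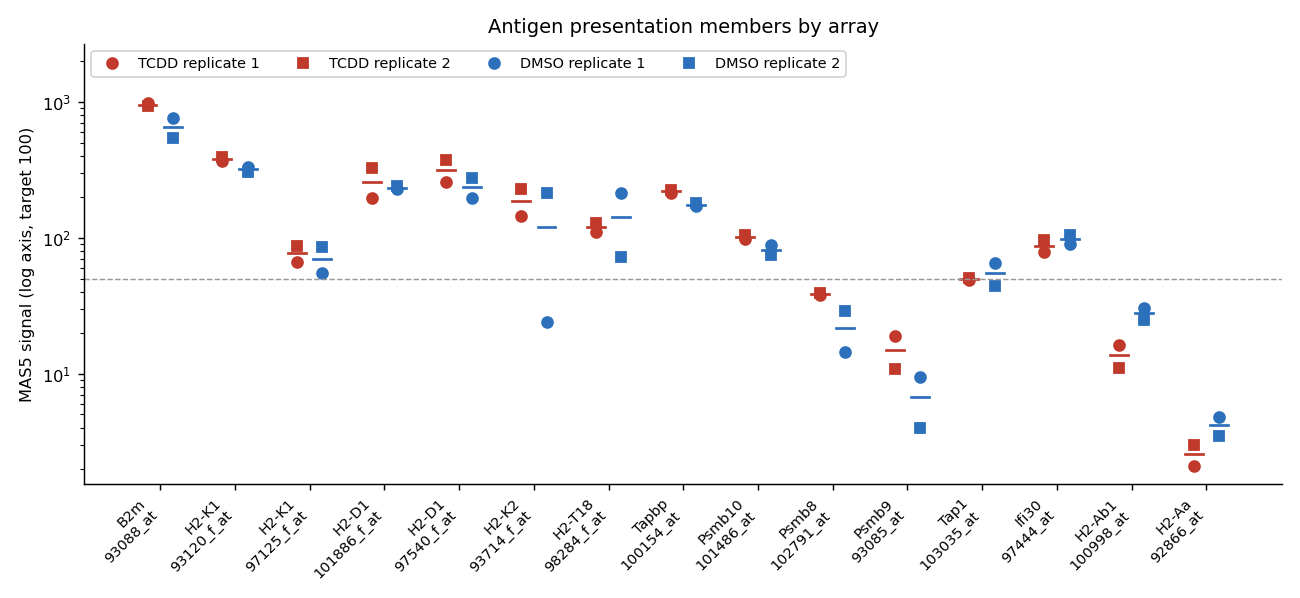
MAS5 signal (log axis) of 15 antigen presentation probe sets on each array, drawn as in the plot of interferon-induced members (TCDD red, DMSO blue, circles replicate 1, squares replicate 2, bars group means, dashed line at 50). B2m, H2-K1 (93120_f_at), Tapbp (100154_at), Psmb10, Psmb8 and Psmb9 have both TCDD points above both DMSO points, and the class II chains H2-Ab1 and H2-Aa have both below.

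All 3 immunoproteasome subunits, which replace constitutive subunits in cells exposed to interferon, were higher in both TCDD arrays. Over the 9 peptide supply probe sets, 4 had non-overlapping higher and 1 non-overlapping lower signals (background 10.8% and 20.8%). Psmb10 had 98.6 and 103.9 in TCDD against 88.8 and 74.7 in DMSO, a log2 difference of 0.27 ± 0.21 (SE, limma adjusted p 0.997) that was 0.16 without DMSO replicate 2. Psmb8 had 37.6 and 39.5 against 14.5 and 28.7, and Psmb9 had 19.0 and 10.8 against 9.4 and 4.0, TCDD first. Both DMSO values of Psmb8 and 2 of the 4 Psmb9 values were stored as calendar days. Their log2 differences of 0.56 and 0.44 were 0.77 and 0.40 with such values set to 16. The constitutive counterparts were not higher in both TCDD arrays. Psmb5 (101558_s_at) had 654.9 and 657.2 in TCDD and 751.4 and 580.6 in DMSO. Psmb6 had 760.9 and 881.9 against 946.8 and 932.5, and Psmb7 (94263_f_at) 741.8 and 607.0 against 629.8 and 643.7, TCDD first. The log2 differences were -0.01, -0.19 and 0.07. A dimmer Psmb5 probe set (160559_at) overlapped, at 43.5 and 35.3 in TCDD and 61.8 and 40.4 in DMSO. The difference between the 2 sets of subunits was not tested.

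Tap1, a subunit of the peptide transporter and the member just above the minimum at a mean of 52.3, had 49.0 and 50.2 in TCDD and 65.6 and 44.3 in DMSO. Tap2, the other subunit, had signals of 12.3 or less on every array. Tapbp, which encodes tapasin, the bridge between transporter and heavy chain, had 214.4 and 226.2 in TCDD against 170.2 and 179.7 in DMSO at 100154_at (log2 difference 0.31 ± 0.20, SE), but 109.6 and 102.4 against 114.9 and 131.9 at 162104_f_at and 47.9 and 109.8 against 83.5 and 97.3 at 102689_at. Of 27 listed antigen processing genes outside the members, 22 were measured and 17 reached the minimum. Of these 17, 12 were positive (background 51.1%), 5 negative and 0 passed limma's adjusted p (1 at an unadjusted p under 0.05, background 2.59%). The smallest unadjusted limma p-values were those of Ctss (log2 difference 0.58 ± 0.23), Lgmn (0.37 ± 0.20) and Psme1 (0.28 ± 0.20, SE). Ctss and Lgmn encode lysosomal proteases, and Psme1 a proteasome activator subunit that interferon gamma induces. The dim Psme1 probe set 161293_r_at overlapped, with a log2 difference of -0.10.

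MHC class II genes were dim. No chain or exchange factor gene reached a mean signal of 50, and of the 12 probe sets 0 had non-overlapping higher and 3 non-overlapping lower signals (background 10.8% and 20.8%), too few to set the role apart from all probe sets. H2-Ab1, a class II beta chain, had 16.2 and 11.0 in TCDD against 30.6 and 24.8 in DMSO, and H2-Aa, its alpha partner, 2.1 and 3.0 against 4.8 and 3.5. H2-Eb1 had 17.3 and 10.0 in TCDD and 17.3 and 23.5 in DMSO. H2-DMa (93092_at), which helps load class II peptides, had 44.4 and 47.2 in TCDD and 20.5 and 63.0 in DMSO. Ifi30, a lysosomal thiol reductase of antigen processing, was the 1 gene of the role above the minimum, with 78.0 and 96.3 in TCDD and 89.7 and 105.0 in DMSO. Cd74, the class II invariant chain, had 41.7 and 37.4 in TCDD against 56.2 and 44.3 in DMSO.

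Markers of cells that could carry these transcripts were read from the same arrays. In bulk tissue, fewer cells of a type and less RNA per cell cannot be told apart. Of 25 listed macrophage markers all 25 were measured, 16 with a positive difference (background 39.2%). Their summed signals were 1530 and 1479 in TCDD against 1416 and 1197 in DMSO. Among them 9 had non-overlapping higher and 2 non-overlapping lower signals (background 10.8% and 20.8%). The minimum was reached by 11, of which 0 passed limma's adjusted p (3 at an unadjusted p under 0.05, background 2.59%). Lyz2, a lysozyme gene, had 146.1 and 96.9 in TCDD against 73.7 and 73.7 in DMSO, and C1qb, a complement gene, 85.3 and 120.9 against 64 and 67.4, but dimmer probe sets of both genes were lower in both TCDD arrays. Ctss is also a marker in this list. Csf1r, the macrophage growth factor receptor, had 112.7 and 83.1 in TCDD and 83.4 and 81.3 in DMSO, while Cd68 overlapped and Adgre1, Ptprc, Itgam, Aif1 and Fcer1g had signals under 20 on every array. No marker was at 0 on all arrays. The median level over the list, as log2(signal + 16), did not follow the sums, at 5.99 and 5.80 in TCDD and 6.16 and 5.84 in DMSO. The summed GTPase signals were 497 and 470 in TCDD against 335 and 275 in DMSO, and the part of macrophages in the members' differences was not tested.

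Of 21 listed lymphocyte and dendritic cell markers, 18 were measured, 2 reached the minimum (Flt3 and Thy1) and 4 had a positive difference (background 39.2%). Among the 18, 1 had non-overlapping higher and 6 non-overlapping lower signals (background 10.8% and 20.8%). The sums were 388 and 356 in TCDD against 502 and 399 in DMSO. The T cell receptor complex chains Cd3d, Cd3e and Cd3g had signals under 10 on every array. Of 11 endothelial markers 9 were measured, with sums of 735 and 714 in TCDD and 784 and 734 in DMSO. Dental markers were present, 11 of 15 mesenchymal and 8 of 12 measured epithelial ones above the minimum: Msx1 and Lhx8 of the mesenchyme averaged 614 and 410 in TCDD and 655 and 372 in DMSO, while the keratins Krt5, Krt14 and Krt15 of the epithelium were under 11 on every array. Of the 12 epithelial markers 2 had non-overlapping higher and 3 non-overlapping lower signals (background 10.8% and 20.8%). Of the 8 above the minimum 0 passed limma's adjusted p (1 at an unadjusted p under 0.05, background 2.59%). Perp, a desmosome gene, had 756.8 and 738.0 in TCDD against 393.2 and 592.1 in DMSO, and Dsp, which encodes desmoplakin, 1379.2 and 1566.5 against 936.4 and 1346.5. Cdh1, the epithelial cadherin, had 101.2 and 120.5 in TCDD against 170.3 and 141.1 in DMSO, and the part of epithelial content in the members' differences was not tested. The exposure was visible in Cyp1a1 (94715_at), a target of the aryl hydrocarbon receptor, with 194.8 and 210.5 in TCDD against 14.7 and 12.7 in DMSO. The log2 difference was 2.88 (limma adjusted p 0.000368), while the dim Cyp1a1 probe set 161831_at overlapped.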

How the data were processed

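The deposited values are MAS5 intensity signals, 1 per probe set and array. Per the labels, the authors ran Affymetrix Microarray Suite 5.0 on murine U74v2A arrays and scaled each to a target of 100. No detection calls or probe-level files were used, so background correction could not be varied. Of 49952 cells, 18515 (37.1%) hold a calendar day serial (38718 to 38990) and were turned back into signals as day.month; 179 of the 372 member cells were such cells. Afterwards the mean with 2% trimmed at each end was 100.05 on every array. Symbols came from the platform annotation and were updated through the GRCm38.p6 gene table, and all 93 member probe sets matched. A further gene that the rule names is not reported here.

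limma 3.58.1 in R 4.3.3 (eBayes with trend) was fitted to log2(signal + 16) of 5783 probe sets whose mean over the 4 arrays was 50 or more, with the Benjamini-Hochberg adjustment over all of them and a threshold of 0.05; members below that minimum took their test from the fit of all 12422. The procedure was tested on simulated data. An exact permutation test of 2 arrays against 2 cannot pass the threshold and was not run. Each array is a pool, and p-values measure only the spread between these arrays, which may in part be technical. Every SE and p-value uses limma's variances, which are drawn toward a trend over all probe sets. In the main fit 8.85 of 10.85 degrees of freedom came from that trend. An SE is therefore not the spread of a member's own arrays alone. Members and gene lists were chosen with earlier results of these data known. Named were members past the test, the 12 with the largest smallest change over array pairs, the 10 brightest, their other probe sets, those at the minimum and up to 3 genes per list; other members and markers were named after their values were seen. Each list gene is represented by its brightest probe set. Protein identity, fixed as a description, was not run. Alternatives were other offsets, minimum signals, scaling, stored days, variance trend, replicate block, left-out arrays and 1 probe set per gene.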

Additional observations from a re-analysis of the deposited data

How the results depend on the processing

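The count of 0 members past limma's adjusted p held under other offsets, minimum signals, quantile normalization, days set to 16 and no trend. It was 1 without DMSO replicate 2 (H2-K2, log2 difference 2.32, adjusted p 0.00871; counts of 0 to 1 over left-out arrays) and 2 with the replicate number as a block: Iigp1 (0.84, adjusted p 0.0194) and H2-K2 (1.05, adjusted p 1.11e-04). The block fit took every variance from the trend over all probe sets, and 511 had an unadjusted limma p under 0.05, against 150 in the main fit. Its p-values therefore do not measure a member's own spread. The 2 same-numbered pairs of H2-K2 differed, at 144.7 against 23.8 and 229.5 against 214.9, TCDD first. The 23.8 was stored as a calendar day. Same-numbered arrays deviated together (r = 0.381 over 5783 probe sets), but the labels give no reason to pair the arrays by number.

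Members with non-overlapping groups, 42 in all (27 higher, 15 lower), were 21 (14 and 7) with stored days set to 16, 13 (9 and 4) at a mean signal of at least 50 and 4 (3 and 1) at 100; quantile normalization gave 9 lower. With 1 array left out, where fewer pairs must agree, they were 62 to 72 (34 to 42 higher, 22 to 36 lower). For GTPases and effectors, 20 higher and 1 lower became 8 and 1 with days set to 16 (background 8.57% and 10.5%). With quantile normalization they were 21 and 0 (background 14.9% and 15.4%). With an array left out they were 22 to 23 and 4 to 5, where the background was 23.8% to 29.1% higher and 32.5% to 49.3% lower.

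The GTPase median was 0.40 at an offset of 1, 0.81 at a mean signal of at least 50, and 0.19 to 0.40 over left-out arrays. The effector median was 0.39 at an offset of 1 and 0.26 after quantile normalization, the class I median 0.24 at a mean signal of at least 100, and the peptide supply median -0.10 at 50 and -0.10 to 0.27 over left-out arrays. The class II median was 0.090 after quantile normalization, -0.14 at 50, -0.068 with 1 probe set per gene, -0.12 without probe sets of mixed or shared probes (chosen after seeing the data, as was the minimum of 50 for medians and counts) and -0.11 to -0.037 over left-out arrays. That of the transcription factors was -0.21 to 0.14 over left-out arrays. The cause of these moves was not tested.

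Over left-out arrays the sign of the log2 difference turned for H2-D1 (101886_f_at, -0.24 to 0.44), H2-K1 (97125_f_at, -0.13 to 0.38), H2-K2 (-0.22 to 2.32), H2-T18 (-0.77 to 0.61), Ifi27 (-0.18 to 0.38), Ifitm3 (-0.020 to 0.27), Tapbp (102689_at, -0.73 to 0.24) and Irf2bp1 (-0.12 to 0.23). Iigp1 (96764_at) stayed between 0.55 and 1.01, Gbp3 between 0.48 and 1.09 and B2m between 0.31 and 0.79 under every setting run. Of the dim effectors, Usp18 was 1.76 at an offset of 1, 0.39 at 64 and 0.56 with days set to 16, and Ifit1 2.26, 0.50 and 0.57.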
